A study of Mus musculus with 6 samples.

Results

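The Hox genes of the 4 mammalian clusters were followed through 6 RNA-seq libraries of mouse neurospheres. All gene symbols made of Hox, a cluster letter from a to d and a number were taken from the Cufflinks table, which gave 39 of its 23107 genes. The clusters contributed 11 Hoxa, 10 Hoxb, 9 Hoxc and 9 Hoxd genes. HTSeq counts were present for 36 members, and Hoxb1, Hoxd11 and Hoxd12 were absent from the HTSeq table. In the Cufflinks table Hoxb1 and Hoxd12 were listed at 0 fragments in every library, and Hoxd11 had a single fragment, in WT replicate 70A.

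Neurospheres are balls of neural stem cells and their progeny grown in suspension. The G328V group holds 3 libraries labelled ACVR1 G328V, a glycine-to-valine change in a BMP receptor of the type I class, and the WT group holds 3 libraries labelled ACVR1 WT. All were grown from C57BL/6 mice with N2, B27, EGF and FGF. The series abbreviates the groups as NPAC and NP without spelling these out. The locus of the change, other alleles the groups may share, and the age and number of the source animals do not appear in the sources used here. The series calls the libraries biological replicates without saying whether each came from its own animal, and the p-values below cover the spread among the libraries, which may be technical.

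Hox genes encode homeodomain transcription factors that give cells their position along the head-to-tail axis and in the limbs. Within a cluster the genes lie in the order of their expression along the body: low paralog numbers act in the hindbrain, high ones in the trunk, tail and limbs. Genes with the same number in different clusters are paralogs with overlapping functions. Polycomb proteins keep the clusters silent in cells that do not use them, and the forebrain is a region in which Hox genes are normally off.

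HTSeq totals ranged from 115953495 to 191115532 counts, and 3 counts, the floor used here for a gene to count as seen, corresponded to 0.0163 to 0.0249 CPM. CPM are counts scaled to the size of each library, here with TMM factors. Acvr1 had 244, 250 and 650 CPM in the G328V libraries, and 42.4, 100 and 90.7 CPM in the WT libraries. Of the 10 neural stem and progenitor markers, Nes, Sox2 and Vim were above 90 CPM in every library, and others were not shared by all libraries. Sox1 had 1049, 3257 and 1859 counts in G328V, and 801, 0 and 7 counts in WT. Fabp7 had 11169, 318 and 1230 counts in G328V, and 161599, 32 and 100 counts in WT, and Hes5 had at most 30 counts anywhere. The 11 forebrain markers summed to 192, 171 and 204 CPM in G328V, and 96.9, 110 and 170 CPM in WT, with Otx2 at 16 counts or less. Counts of Xist were 76093, 95736 and 128424 in G328V, against 106, 44 and 206 in WT, so genotype and sex-linked expression cannot be told apart in any difference between the groups.

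Promoter sequence is shown for 4 members whose levels carry the findings below, as 300-base windows from 250 bases before to 50 bases after a RefSeq transcription start (GRCm38.p6, each on the plus strand of the chromosome, 5′ to 3′). Hoxb8, at chr11:96281655-96281954, comes from the cluster that was filled in G328V replicate 1. Hoxc4, at chr15:103034145-103034444, comes from the cluster whose sum separated the groups. Hoxd8, at chr2:74704365-74704664, was the main Hox gene of WT replicate 3, and Hoxd13, at chr2:74667975-74668274, rested on a single library. Capitals mark GGCGCC, a GC-rich element known from BMP-SMAD target genes, and TATAAA, the core of a TATA box, each searched on both strands (TATAAA reads TTTATA on the other).
Hoxb8: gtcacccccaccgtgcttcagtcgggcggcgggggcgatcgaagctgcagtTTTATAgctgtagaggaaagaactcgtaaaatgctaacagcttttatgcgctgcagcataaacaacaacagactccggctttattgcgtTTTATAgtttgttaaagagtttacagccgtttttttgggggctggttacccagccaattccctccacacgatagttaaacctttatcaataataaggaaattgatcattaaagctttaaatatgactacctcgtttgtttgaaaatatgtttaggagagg
Hoxc4: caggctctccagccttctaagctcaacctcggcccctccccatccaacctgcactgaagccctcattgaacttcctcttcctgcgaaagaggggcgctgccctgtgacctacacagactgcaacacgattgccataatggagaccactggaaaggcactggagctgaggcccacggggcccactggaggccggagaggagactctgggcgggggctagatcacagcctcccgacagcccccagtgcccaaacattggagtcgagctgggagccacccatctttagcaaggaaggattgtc
Hoxd8: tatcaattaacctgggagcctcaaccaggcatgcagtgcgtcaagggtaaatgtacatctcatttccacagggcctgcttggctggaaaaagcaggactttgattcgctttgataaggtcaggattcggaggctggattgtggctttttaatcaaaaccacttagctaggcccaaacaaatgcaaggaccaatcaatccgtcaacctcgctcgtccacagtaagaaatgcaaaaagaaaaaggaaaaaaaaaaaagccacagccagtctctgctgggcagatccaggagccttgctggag
Hoxd13: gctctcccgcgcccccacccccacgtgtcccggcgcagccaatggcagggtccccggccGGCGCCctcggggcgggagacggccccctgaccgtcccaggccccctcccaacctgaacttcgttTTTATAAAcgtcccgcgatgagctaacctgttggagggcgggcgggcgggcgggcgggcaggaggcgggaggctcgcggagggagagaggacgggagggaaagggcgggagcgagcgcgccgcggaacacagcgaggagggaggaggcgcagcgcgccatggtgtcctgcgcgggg
RefSeq windows were given for 22 of the 39 members, 24 windows in all. GGCGCC occurred in 5 of the 24 Hox windows (20.8%), against 11.9% of 32851 windows of all genes. TATAAA occurred in 4 Hox windows (16.7%), against 13.6% of all windows. In the Hoxd13 window the TATAAA matches on the 2 strands overlap each other, and no GGCGCC overlaps a TATAAA. CpG dinucleotides numbered 13, 9, 6 and 37 in the Hoxb8, Hoxc4, Hoxd8 and Hoxd13 windows, with a median of 14.5 over the Hox windows and 7 over all windows. These matches describe the sequence of the windows.

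No 2 libraries showed the same set of Hox genes, and the clusters were filled to very different degrees. In the G328V libraries 34, 17 and 22 of the 36 members reached 3 counts, against 9, 4 and 20 members in WT replicates 1, 3 and 70A. Summed over all members, G328V replicates 1 to 3 reached 106, 84.2 and 72.0 CPM, while the WT libraries reached 47.0 CPM (replicate 1), 5.12 CPM (replicate 3) and 51.8 CPM (replicate 70A). The sums of the groups did not overlap, with means of 87.4 ± 17.3 CPM in G328V and 34.7 ± 25.7 CPM in WT (SD, n = 3 each). WT replicate 3, the library with the most counts in total, held the fewest Hox counts, 901, against 18204 in G328V replicate 1. In bulk RNA, fewer cells that express a gene and less RNA per cell cannot be told apart.

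**Figure D1:**
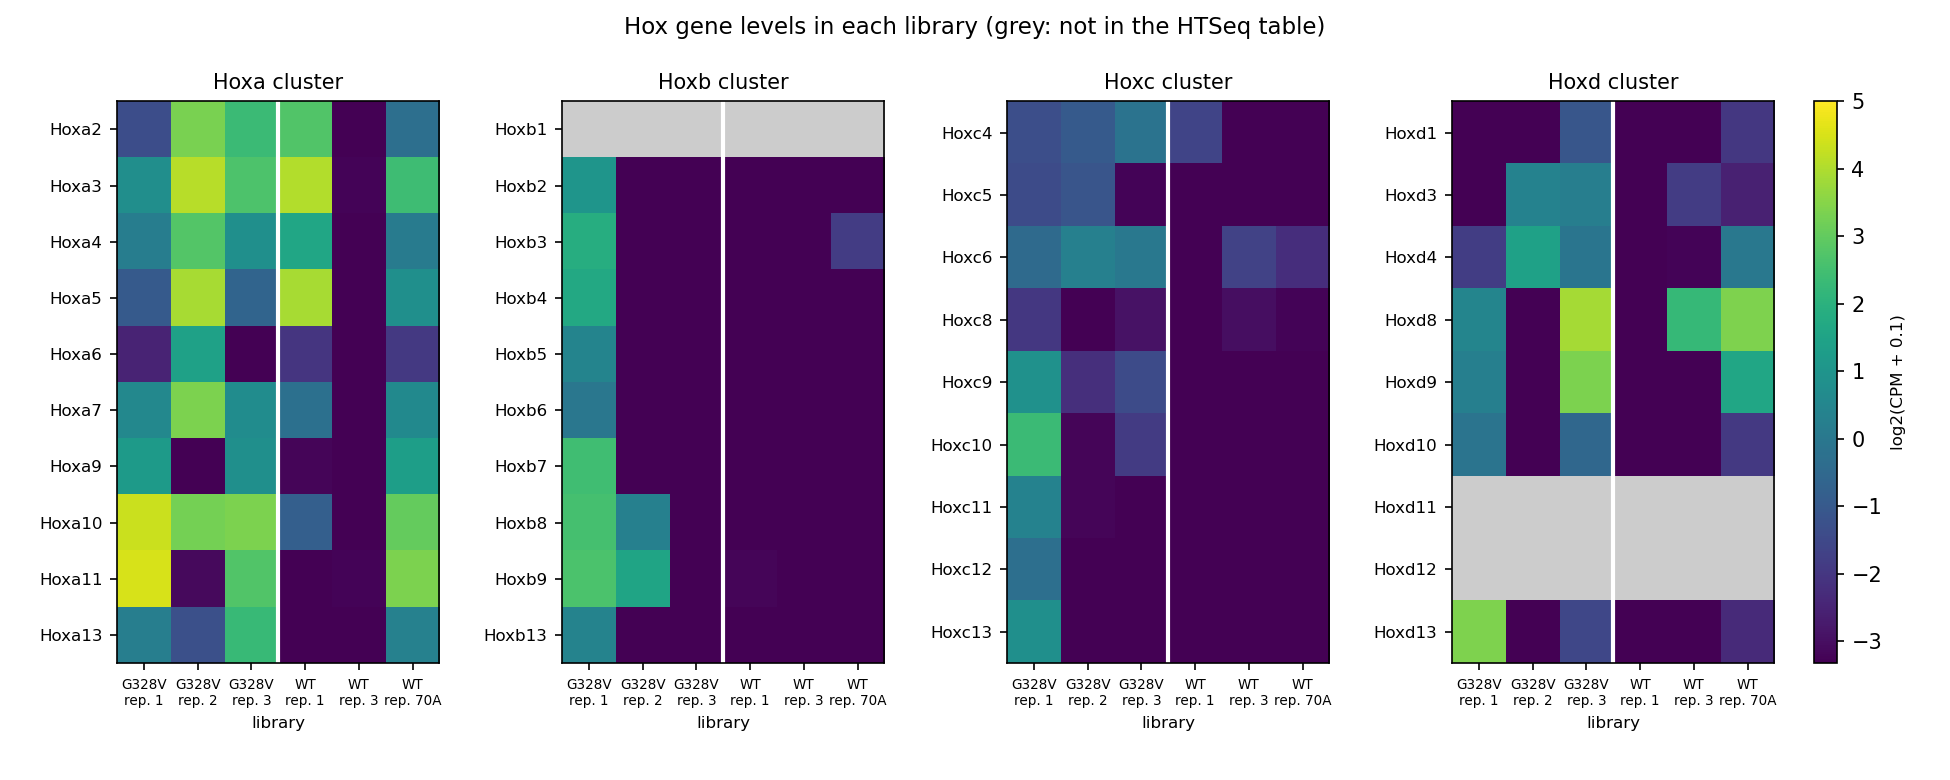
Level of each Hox gene, as log2(CPM + 0.1), in the 6 libraries (columns, G328V left of the white line and WT right of it), with 1 panel per cluster and paralog numbers rising down each panel. Grey rows are the 3 members without HTSeq counts, and 1 Hoxa member is not drawn. The Hoxb panel is filled in G328V replicate 1, and the Hoxa panel is empty in WT replicate 3.

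**Figure D2:**
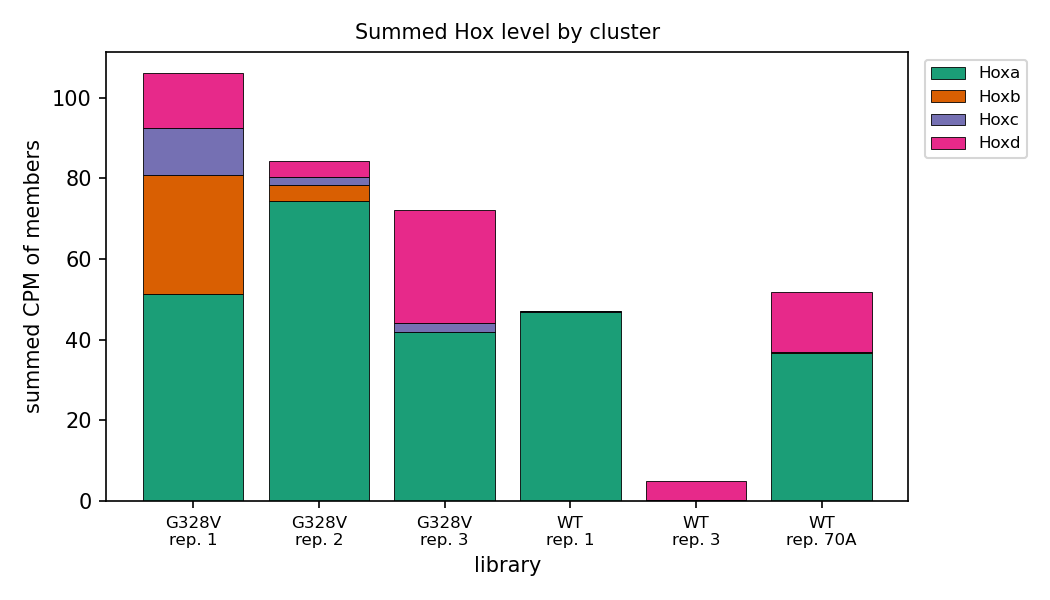
Summed CPM of the Hox members in each library (bars), divided by cluster (colours). Hoxa makes up the largest part in 5 libraries, Hoxb is visible in G328V replicates 1 and 2, and WT replicate 3 reaches 5.12 CPM, nearly all Hoxd.

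No member reached 10 counts in all 6 libraries. In 5 libraries 8 members did so, among them Hoxa2 to Hoxa5, Hoxa7, Hoxa10 and Hoxc6. At the other end, 10 members reached 10 counts in exactly 1 library, against 8.11% of the 17551 genes of the HTSeq table, and for all 10 it was G328V replicate 1. They were Hoxb2, Hoxb4, Hoxb5, Hoxb6, Hoxb7 and Hoxb13, and Hoxc8, Hoxc11, Hoxc12 and Hoxc13. G328V replicate 1 also had the most genes with a count, 15656, and the share of all genes that reached 10 counts only there was not computed. Per kilobase of transcript, the highest level was that of Hoxa11 in G328V replicate 1 (9.85 CPM per kb), Hoxa5 in G328V replicate 2 (7.99) and Hoxd8 in G328V replicate 3 (5.55). In the WT libraries it was that of Hoxa5 in replicate 1 (7.93 CPM per kb), Hoxd8 in replicate 3 (1.78) and Hoxa11 in replicate 70A (4.48).

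The Hoxa cluster, on chromosome 6, gave the largest part of the Hox counts in every library but WT replicate 3, which had 3 counts over all 11 members. Its summed level was 51.4, 74.4 and 42.0 CPM in the G328V libraries, and 46.8 and 36.7 CPM in WT replicates 1 and 70A. WT replicate 1 lay above G328V replicate 3, so the groups overlapped. Within the cluster the libraries differed in which end was used.

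Towards the anterior end, Hoxa2, which sets the identity of the second pharyngeal arch, had 50, 1205 and 914 counts in G328V, and 802, 0 and 127 counts in WT. It was low in G328V replicate 1 and absent from WT replicate 3, and the groups overlapped. Hoxa3, which acts in the pharyngeal arches and the thymus and parathyroid glands, was the strongest anterior member by mean level. It had 1.64, 17.3 and 6.32 CPM in G328V, and 16.4, 0.00568 and 5.24 CPM in WT. G328V replicate 2 and WT replicate 1 were the 2 highest libraries, 1 from each group, and the log2 difference was 0.22 (standard error 1.88). Hoxa4 had 182, 819 and 309 counts in G328V, and 365, 0 and 175 counts in WT, again with overlapping groups.

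In the middle of the cluster, Hoxa5, which is needed for lung and skeletal development, had 0.408, 15.0 and 0.538 CPM in G328V, and 14.9, 0 and 1.67 CPM in WT. A library of each group thus shared the highest level, and the other 4 lay far below. Hoxa6 had 13, 314 and 0 counts in G328V, and 18, 0 and 28 counts in WT. Its neighbour Hoxa7, a gene of trunk patterning, had 234, 1216 and 287 counts in G328V, and 91, 0 and 253 counts in WT. For both genes G328V replicate 2 stood above all other libraries. The log2 difference of Hoxa7 was 2.57 (standard error 2.00), and without G328V replicate 2 it was 1.00.

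At the posterior end, Hoxa9, known for its part in blood progenitors, had 385, 0 and 305 counts in G328V, and 1, 0 and 423 counts in WT. Hoxa10, which patterns the uterus and the lumbar region, had 20.3, 9.44 and 10.2 CPM in G328V, and 0.471, 0 and 8.03 CPM in WT. It was the only Hoxa member whose groups did not overlap, and WT replicate 70A lay close under the G328V libraries. The mean level of Hoxa10 was 13.3 ± 6.05 CPM in G328V and 2.83 ± 4.51 CPM in WT (SD, n = 3 each), and the log2 difference of 2.23 (standard error 2.04) did not pass edgeR's test (adjusted p = 0.997). Hoxa11, which shapes the forearm and the uterus, had 22.5, 0.0166 and 6.63 CPM in G328V, and 0, 0.00568 and 10.3 CPM in WT. Each group held libraries with and without it, and its difference of 1.51, with a standard error of 2.92, was -0.042 without G328V replicate 1. Hoxa13, a gene of the hand and foot plate, had 186, 37 and 870 counts in G328V, and 0, 0 and 203 counts in WT.

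Hoxa11 has an antisense gene, listed as Hoxa11as, and since the strand setting of the counting is not stated, its values are uncertain. Over all genes with at least 500 counts the median was 1.95 to 1.96 HTSeq counts per Cufflinks fragment. Hoxa11 had 2.66 and 2.48 in G328V replicates 1 and 3 and 2.38 in WT replicate 70A, while Hoxa11as had 0.879, 0.928 and 1.31 in the same libraries. Taken as 1 unit the pair had 2.00, 1.87 and 1.93, close to the median of all genes. Over 89 values of Hox members with at least 20 fragments the median was 1.91, and the lowest was 1, for Hoxc6 in WT replicate 3.

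Split by paralog number, the libraries ran from mainly anterior to mainly posterior. Paralogs 9 to 13 gave 71.7% of Hox counts in G328V replicate 1 (95% exact binomial interval 71.0% to 72.3%), 15.1% in G328V replicate 2 (14.4% to 15.8%) and 47.9% in G328V replicate 3 (47.1% to 48.8%). In WT replicate 1 they gave 1.04% (0.792% to 1.33%), in WT replicate 3 0.111% (0.00281% to 0.617%) and in WT replicate 70A 48.5% (47.4% to 49.5%). G328V replicate 3 and WT replicate 70A had overlapping intervals for this share, while each group also held a library with a low one. Paralogs 1 to 4 were the largest part in WT replicate 1, with 65.5% (64.2% to 66.7%), and in G328V replicate 2, with 48.9% (47.9% to 49.9%). In WT replicate 3 paralogs 5 to 8 gave 96.0% (94.5% to 97.2%), nearly all of it Hoxd8. These intervals cover counting error only and are too narrow, since a fragment gave close to 2 counts.

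**Figure D3:**
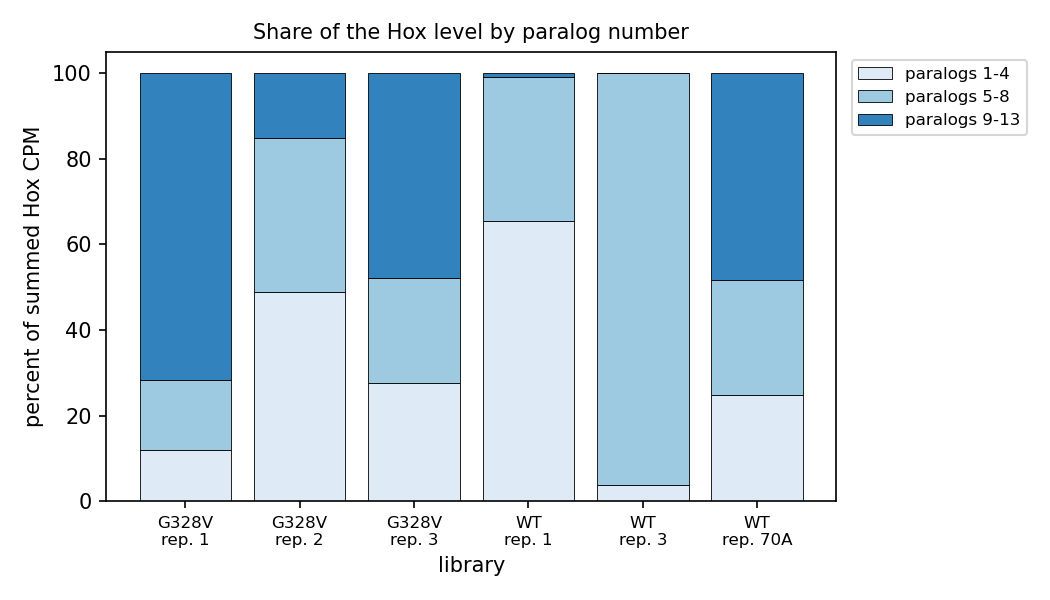
Percent of the summed Hox CPM of each library (bars) that came from paralogs 1-4, 5-8 and 9-13 (shades). Paralogs 9-13 give 71.7% in G328V replicate 1, 47.9% in G328V replicate 3 and 48.5% in WT replicate 70A, and 1.04% or less in WT replicates 1 and 3.

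The Hoxb cluster (chr11:96194316-96368254) was seen in the fewest libraries, 3 of 6. Its HTSeq counts came to 5021, 474 and 0 in G328V, against 1, 0 and 31 in WT. All 9 members with HTSeq counts were seen in G328V replicate 1, from Hoxb2 to Hoxb13. Hoxb9, a gene of thoracic patterning, had 1054, 339 and 0 counts in G328V, and 1, 0 and 0 counts in WT. Hoxb8, known from grooming behaviour and the microglial lineage, had 979, 135 and 0 counts in G328V and 0 counts in each WT library. These 2 neighbours were the only Hoxb genes in G328V replicate 2, and G328V replicate 3 had no Hoxb count at all, so the groups overlapped in both genes.

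Hoxb7 had 927 counts in G328V replicate 1 and 0 in the other 5 libraries. Hoxb2, Hoxb4, Hoxb5, Hoxb6 and Hoxb13 had 329, 545, 215, 152 and 209 counts in the same library and 0 elsewhere. Hoxb4 is known for supporting blood stem cells, and Hoxb13 for the prostate. Hoxb3 had 611 counts there and 31 in WT replicate 70A. None of the 9 passed edgeR's filter on low counts, which asks for enough counts in 3 libraries, so the main test gives no value for this cluster.

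Neural crest markers were also highest in G328V replicate 1. Of the 8 genes on that list 7 were in the HTSeq table, with a summed level of 427, 107 and 101 CPM in the G328V libraries, and 57.7, 137 and 99.4 CPM in the WT libraries. Sox10, a factor of that lineage and also on the oligodendrocyte lineage list, had 11185, 0 and 0 counts in G328V, and 7, 3 and 10 counts in WT. Foxd3 was listed at 0 fragments in all libraries. The oligodendrocyte lineage list summed to 304, 201 and 14.5 CPM in G328V, and 1047, 52.0 and 106 CPM in WT. The part of the neural crest markers in the Hoxb level of G328V replicate 1 was not tested.

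The Hoxc cluster (chr15:102921131-103036856) was low, but it was the only cluster whose summed level did not overlap between the groups. It summed to 2005, 246 and 404 counts in G328V, against 28, 41 and 21 counts in WT, with means of 5.31 ± 5.52 CPM in G328V and 0.194 ± 0.0633 CPM in WT (SD, n = 3 each). That is a ratio of 27.4, and of 10.9 without G328V replicate 1. From Cufflinks fragments the ratio over all libraries was 20.5, and the groups again did not overlap. All 9 members were seen in G328V replicate 1, and 5 of the 9, Hoxc4, Hoxc5, Hoxc6, Hoxc9 and Hoxc10, had all G328V libraries above all WT libraries, against 4.54% of all genes in the HTSeq table.

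Hoxc6, a gene of brachial motor neurons, had 110, 138 and 168 counts in G328V, and 0, 37 and 20 counts in WT. Of all members it had the smallest SD relative to its mean within G328V, at 0.900 ± 0.253 CPM against 0.108 ± 0.105 CPM in WT (SD, n = 3 each). Its log2 difference of 3.04 (standard error 1.71) did not pass edgeR's test (unadjusted p = 0.125, adjusted p = 0.997). With Cufflinks counts the difference was 2.43, and in WT replicate 3 Hoxc6 had 37 fragments for its 37 counts. Hoxc4, which lies at the anterior end of the cluster, had 51, 49 and 146 counts in G328V, and 28, 0 and 0 counts in WT. At 0.297, 0.407 and 0.794 CPM the G328V libraries lay above WT replicate 1, at 0.228 CPM. Its log2 difference was 2.72 (standard error 2.28), and 9.36 without WT replicate 1, a size that rests on 0 counts in the remaining WT libraries and is not a measured value.

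Hoxc9, which organises thoracic motor neurons, had 300, 14 and 51 counts in G328V and 0 counts in each WT library. With 3 counts set as the WT group's total it was at least 121-fold higher in G328V, and at least 33.7-fold higher without G328V replicate 1. Since no WT library held it, Hoxc9 passed the filter on low counts through its G328V libraries alone. Hoxc10, a lumbar gene, had 859, 1 and 32 counts in G328V and 0 in each WT library. That is at least 296-fold higher by the same floor and at least 17.1-fold without G328V replicate 1. Since a fragment gave close to 2 counts, the bounds of Hoxc9 and Hoxc10 would be lower with a floor of 3 fragments. They also leave out the spread among libraries. Hoxc5 had 47, 43 and 1 counts in G328V and 0 in WT. For Hoxc5 and Hoxc10 the separation of the groups thus rests on 1 count in 1 library.

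Among the rest, Hoxc8 had 27, 0 and 6 counts in G328V, and 0, 4 and 1 counts in WT. Hoxc11, Hoxc12 and Hoxc13 had 202, 125 and 284 counts in G328V replicate 1, and at most 1 count in any other library. Hoxc13 is a gene of hair and nail formation.

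**Figure D4:**
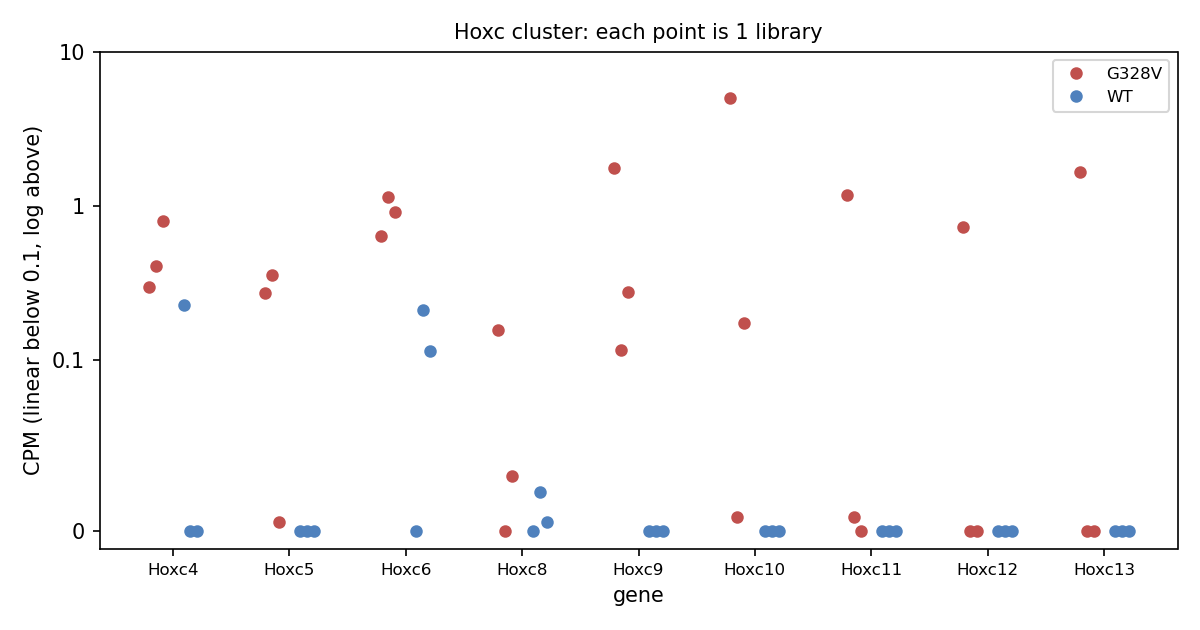
Level of the 9 Hoxc genes in CPM (vertical axis, linear below 0.1 and logarithmic above), with 1 point per library, G328V left of WT for each gene. For Hoxc9 the 3 G328V points lie above 0.1 CPM and the 3 WT points at 0. Hoxc11, Hoxc12 and Hoxc13 each have 1 high point, from G328V replicate 1.

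The Hoxd cluster (chr2:74668225-74765142) was high in G328V replicate 3 and absent from WT replicate 1. Its sum was 13.7, 3.80 and 27.8 CPM in the G328V libraries, and 0, 4.87 and 14.8 CPM in WT replicates 1, 3 and 70A, with overlapping groups. WT replicate 1 had 0 counts over the members, which allows up to 0.0244 CPM at 3 counts. Hoxd8 was the highest member of the cluster by mean CPM. It had 222, 0 and 2688 counts in G328V, and 0, 824 and 1822 counts in WT, and made up 824 of the 901 Hox counts of WT replicate 3. High and absent libraries occurred in both groups, and the log2 difference was 0.07 (standard error 2.65).

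Hoxd9, which acts with its paralogs in limb and spinal patterning, had 190, 0 and 1848 counts in G328V, and 0, 0 and 517 counts in WT. Hoxd13, the gene of the digits, had 1767, 0 and 44 counts in G328V, and 0, 0 and 17 counts in WT. The level of Hoxd13 in G328V replicate 1, 10.3 CPM, was 96.8% of its summed CPM over all libraries. Its log2 difference of 6.70 (standard error 3.42) did not pass (unadjusted p = 0.0964, edgeR adjusted p = 0.997), and it was 1.85 without G328V replicate 1. Counts of Hoxd10, which acts at lumbar level, were 141, 0 and 109 in G328V, and 0, 0 and 28 in WT.

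Towards the anterior end, Hoxd3 had 0, 143 and 200 counts in G328V, and 0, 32 and 12 counts in WT. Hoxd4 had 32, 314 and 156 counts in G328V, and 0, 1 and 156 counts in WT. These 2 genes were present in G328V replicate 2, which had 0 counts of Hoxd8, Hoxd9, Hoxd10 and Hoxd13. They share exons in the GENCODE annotation, 9.26% of the exon bases of Hoxd3 and 13.2% of those of Hoxd4, so reads could be divided between them. Hoxc5 and Hoxc10 likewise share 5.37% and 8.70% of their exon bases with another Hox gene. Hoxd1 had 0, 0 and 68 counts in G328V, and 0, 0 and 27 counts in WT.

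Genotype was then tested over the whole table with edgeR's quasi-likelihood test, which asked whether G328V and WT libraries differed by more than the spread within groups. Of the 39 members 20 passed the filter on low counts: 11 Hoxa, 3 Hoxc, 6 Hoxd and 0 Hoxb genes. Of these 20, edgeR called 0 at an FDR of 0.05, as it called 0% of 14643 genes (0 of 14643). An unadjusted p under 0.05 was found for 1 of the 20 and for 4.06% of all genes. The member was Hoxc9, with a p of 0.0135 and an edgeR adjusted p = 0.997. The limma-voom test called 0 of the 20 and 0% of all genes, with 4 members and 4.03% of all genes at an unadjusted p under 0.05.

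DESeq2, which applied no filter before its fit, called 3 of 36 members higher in G328V, Hoxc9, Hoxb9 and Hoxb8 (DESeq2 adjusted p = 0.00887, 0.0137 and 0.0445), against 0.536% of 17551 genes. It called 0 members lower, against 0.45% of genes, and 5 members had an unadjusted p under 0.05, against 6.55% of genes. The 36 members include many to which DESeq2 gave no p: Hoxa6, Hoxa10, Hoxb2 to Hoxb7, Hoxb13, Hoxc10 to Hoxc13 and Hoxd13. Those members could not be called. Hoxb8 and Hoxb9 had 0 counts in G328V replicate 3, and Hoxc9 and Hoxb8 had 0 counts in all WT libraries.

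The estimates of the tested members were mostly positive and wide. Positive log2 differences were found for 18 of 20 members, against 49.7% of all tested genes. Hoxa5, at -0.05, was among the exceptions. The members are not separate observations, since genes of a cluster shared libraries with few counts. In WT replicate 3 all 11 Hoxa members together had 3 counts. The median was 2.12 over the 20 members and -0.0039 over all tested genes, and setting Hoxc9 to its bound left it at 2.12. Standard errors ran from 1.71 to 3.42. A difference above 1 in size was estimated for 15 of the 20 members and for 22.6% of all tested genes. Without WT replicate 70A the median was 6.93, and it was 1.85 to 2.55 without any other single library. The filter was rerun each time, so these medians cover 21 to 26 members. Without WT replicate 70A several members, among them Hoxa11, Hoxd9 and Hoxd13, had at most 1 count in each remaining WT library. The value of 6.93 thus rests partly on such counts and is not a measured size.

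Spread within groups was large for Hox genes. The within-group SD of log2 CPM had a median of 3.24 over the 20 members, with a range of 1.37 to 5.27. Over all tested genes the median SD was 0.667, and over the 3962 tested genes with a mean level in the range of the Hox members, 0.263 to 8.06 CPM, it was 1.72. Groups that did not overlap, with G328V higher, were found for 4 of the 20 members and for 5.25% of all tested genes, and with G328V lower for 0 of the 20 and for 4.45% of all tested genes. In the whole HTSeq table they were found for 6 of 36 members and for 4.54% of genes, and the opposite order for 0 of 36 members and for 3.87% of genes. The 4 were Hoxa10, Hoxc4, Hoxc6 and Hoxc9, joined by Hoxc5 and Hoxc10 in the whole table. Without WT replicate 70A there were 10 of 36 members, against 8.32% of genes, and without WT replicate 3 there were 6 with G328V higher, against 8.2% of genes, and 1 with G328V lower, against 8.33% of genes. Zero counts in all WT libraries were found for 13 of the 36 members and for 4.87% of genes, and zero counts in all G328V libraries for 0 members and for 4.19% of genes. For 8 of the 13 every count came from G328V replicate 1, a share that was not computed over all genes.

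**Figure D5:**
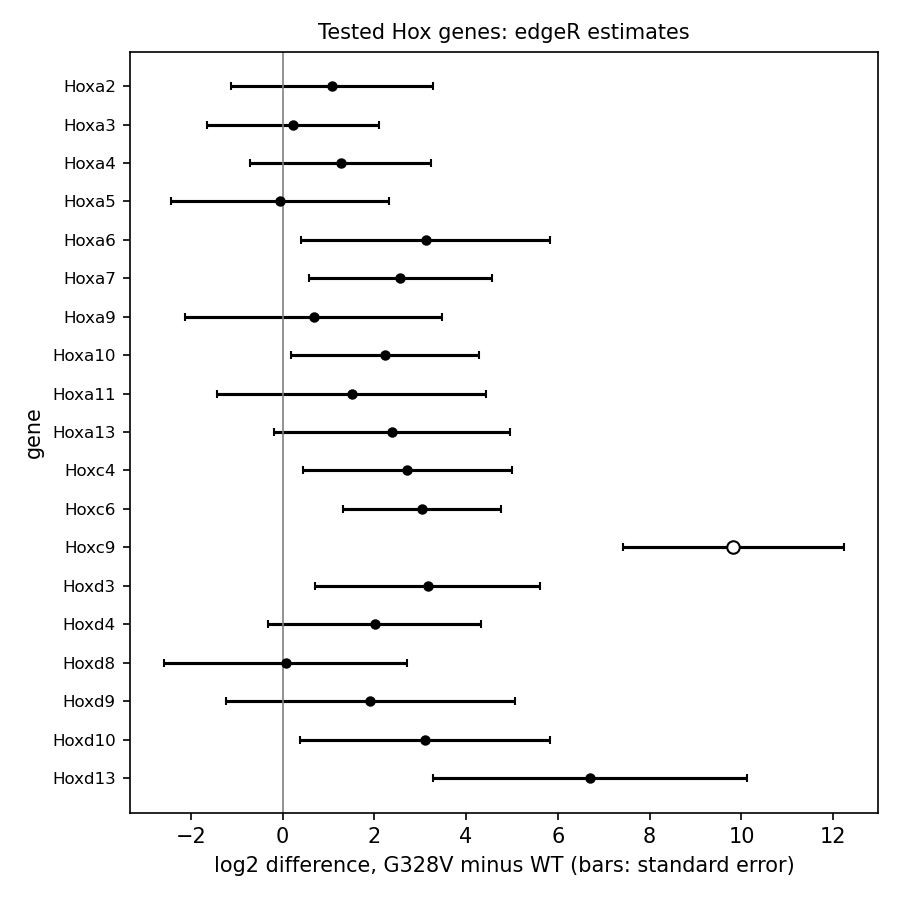
log2 difference, G328V minus WT, of the tested Hox genes (horizontal axis; 1 of the 20 is not drawn), with bars of 1 standard error from edgeR's fit. The open point marks Hoxc9, which had 0 counts in WT, so that its size is not a measured value. Of the points 18 lie right of 0, and none passed the FDR.

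Genes that lie beside the clusters or work with Hox proteins were described from lists drawn up from known biology, with earlier results of these data known, and edgeR called 0 genes of any list in either direction. Of 18 tested genes that flank the clusters, 7 had positive and 11 negative differences, with a median of -0.09. Some flanking genes were present where the cluster itself was nearly empty: in WT replicate 3, Skap2 and Hibadh, on either side of Hoxa, had 2807 and 12320 counts, against 3 counts over the 11 Hoxa members. This was the lowest Skap2 level of the 6 libraries, with 22.5, 85.0 and 19.9 CPM in G328V, and 108, 15.95 and 46.2 CPM in WT. Cbx5, which encodes a heterochromatin protein and lies near Hoxc, had 417, 437 and 462 CPM in G328V, and 762, 567 and 638 CPM in WT. It was lower in each G328V library, with a log2 difference of -0.58 and a standard error of 0.22 (edgeR adjusted p = 0.997). The difference was 0.89 for Hibadh (standard error 0.43), 0.30 for Tax1bp1 (0.22) and 2.23 for Jazf1 (2.28). For these genes each G328V library lay above all WT libraries, as for 4.54% of genes in the HTSeq table. The opposite order, as in Cbx5, was found for 3.87% of genes. For Jazf1 the margin was narrow, with 4.56 CPM in G328V replicate 3 against 4.23 CPM in WT replicate 1. Evx1, a homeobox gene just beyond Hoxa13, had 44, 0 and 34 counts in G328V, and 0, 0 and 170 counts in WT, and was seen in the same 3 libraries in which Hoxa11 reached 3 counts.

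Non-coding genes of the clusters were present for 5 of 25 symbols in the HTSeq table, and 3 were tested, all with positive differences and a median of 2.05. Mira, a long non-coding RNA gene between Hoxa6 and Hoxa7, had 108, 1277 and 323 counts in G328V, and 179, 0 and 294 counts in WT. Its highest library, G328V replicate 2, was also the highest for Hoxa6 and Hoxa7. Hoxa11as had 758, 0 and 296 counts in G328V, and 0, 0 and 700 counts in WT. Those libraries also held Hoxa11. The gene 2700086A05Rik, listed by RefSeq as Hoxaas3, had 0, 109 and 8 counts in G328V, and 19, 0 and 12 counts in WT. Hotair, which lies between Hoxc11 and Hoxc12, had 45 counts in G328V replicate 1 and 0 in the other 5 libraries. The 6 microRNA genes of the clusters were listed at 0 fragments throughout.

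Cofactors that bind DNA with Hox proteins were present in every library at 3 counts or more, apart from Pknox2, which had 1 count in WT replicate 3. All 9 Pbx, Meis and Pknox genes were tested, 7 with positive and 2 with negative differences and a median of 0.30. The difference was 0.68 for Meis2 (standard error 0.38) and -1.39 for Meis1 (0.81). The summed level of the 9 genes was 432, 854 and 350 CPM in G328V, and 391, 330 and 482 CPM in WT, so WT replicate 3, with 5.12 CPM of Hox genes, held 330 CPM of cofactors.

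Among 11 tested regulators of Hox genes, 8 had positive and 3 negative differences, with a median of 0.41. Cyp26b1 and Cyp26a1, which break down retinoic acid, had differences of 3.54 (standard error 1.19) and 2.64 (1.57), and Egr2, a hindbrain factor, one of 1.90 (1.10). Cdx2, a caudal factor known to activate trunk Hox genes and named here after its values were seen, had 91, 14516 and 541 counts in G328V, and 2, 7923 and 2034 counts in WT. It was high in WT replicate 3, which held almost no Hoxa to Hoxc counts, and in G328V replicate 2, and low in G328V replicate 1, where the most Hox members were seen.

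Chromatin regulators of Hox clusters were present in every library. Of 17 tested genes of the Polycomb and trithorax groups and their partners, 12 had positive and 5 negative differences, with a median of 0.20. Kdm6a, which removes the Polycomb mark and is X-linked, had 116, 114 and 196 CPM in G328V, and 64.8, 85.3 and 74.9 CPM in WT. It was higher in each G328V library, by 0.92 on the log2 scale with a standard error of 0.30 (edgeR adjusted p = 0.997), beside the complete separation of Xist. The difference was 0.32 for Suz12, of a Polycomb complex (standard error 0.20).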

How the data were processed

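Total RNA of neurospheres was read as paired ends from 6 ribosomal RNA-depleted, stranded libraries, per the labels' protocols. The submitters' processing notes name mm10, FastQC 0.11.3, TopHat2 2.0.13 and Bowtie2 2.2.1; the annotation and the settings for counting are not stated there. The authors deposited whole-number HTSeq counts for 17551 genes and Cufflinks estimated counts of fragments for 23107 genes, neither normalized. Both tables were matched to samples by the library number in the labels.

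The main test on these counts was edgeR 4.0.16's under R 4.3.3 (quasi-likelihood F-test, legacy robust fit, TMM, filterByExpr with a minimum count of 10) without covariates, with Benjamini-Hochberg adjustment over 14643 genes. Standard errors come from the F statistic. Alternatives were DESeq2 1.42.0, limma 3.58.1 (voom), other scalings and filters, rounded Cufflinks values, each library left out and a replicate block. The fits were tested on simulated data. Binomial intervals used scipy 1.17.1.

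Members and lists were chosen with earlier results of these data known. Members with full values were the 3 highest by mean CPM in each cluster, those with groups that did not overlap and the 6 with the smallest edgeR p, 16 in all, of which 11 were tested. From each list the 3 tested genes with the smallest p were named, and further genes after their values were seen; some genes these rules select are not reported here. The 5 genes outside the clusters with the highest Pearson r of log2 CPM with the summed Hox level were also named. Coordinates and promoters are RefSeq's (GRCm38.p6, the assembly of mm10). Transcript lengths are those of the GENCODE M21 transcript with the longest coding sequence.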

Additional observations from a re-analysis of the deposited data

How the results depend on the processing

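The count of Hox members past the FDR was 0 in every edgeR and limma-voom setting, Cufflinks counts and the omission of each library included. DESeq2 called 3 members and 173 genes of the whole table, against 0 and 0 by edgeR. The median log2 difference of tested members was positive throughout. It was 1.85 to 6.93 when 1 library was left out, over 21 to 26 members, and the 6.93 is not a measured size. With the replicate block, which uses the numbers 1 and 3 shared by the groups, the median was 4.57 and 0 members were called. G328V replicate 2 and WT replicate 70A have no partner there, so the estimates rest on replicates 1 and 3 of each group. That leaves too few libraries to estimate the spread, so the 0 calls carry no weight. Hoxd9 and Hoxd13 had 0 counts in both of those WT libraries, so 4.57 is not a measured size. Same-numbered libraries deviated together with correlations of 0.18 and 0.23 over 14643 genes, but 2 pairs do not establish a pairing. Without a filter 36 members were tested, with 34 positive differences, and at 1 CPM in 3 libraries 12 members, with 10 positive and a median of 1.16. The sign of some members depended on 1 library: leaving out each in turn gave -0.042 to 11.28 for Hoxa11, -0.85 to 1.64 for Hoxa3, -2.96 to 1.18 for Hoxd8 and -0.84 to 12.18 for Hoxd9, where the values of 11.28 and 12.18 set G328V against WT libraries with 1 count or none. Hoxd8 also turned to -0.44 with limma-voom. The cause was not tested. The count of members whose groups did not overlap, with G328V higher, was 6 to 10 when each library was left out, while the share of all genes was 7.97% to 11% against 4.54% with all libraries, an alternative chosen after seeing the data. The adjusted p of Hoxc9 ran from 0.00887 with DESeq2 to 1.00 over 14 alternatives. Members with few counts are limited by depth: at the floor of 3 counts, a library with 0 counts may hold up to 0.0249 CPM. A floor of 3 fragments would allow more.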

Other observations

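Outside the clusters, the 5 tested genes whose log2 CPM followed the summed Hox level most closely over the 6 libraries were 2310046O06Rik, Tmf1, Rerg, Snrnp48 and Apool. Their Pearson r was 0.989 to 0.995 and their Spearman rho 0.886 to 1. They were picked for this value among all genes, so it carries no p. Without the 2 libraries farthest from the median Hox level, WT replicate 3 and G328V replicate 1, r was 0.789 to 0.960. Rerg, which encodes a small GTPase of the Ras family, had 4.72, 5.14 and 3.00 CPM in G328V, and 1.16, 0.00568 and 2.59 CPM in WT. On the log2 scale Rerg had the widest range of the 5, and its value in WT replicate 3 lay below the floor of 3 counts. Tmf1 had 154, 148 and 151 CPM in G328V, and 129, 84.6 and 134 CPM in WT.

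Libraries without a Hox cluster were not the same for each cluster. At the floor of 3 counts per gene, G328V replicate 3 lacked Hoxb, WT replicate 1 lacked Hoxb and Hoxd, and WT replicate 3 lacked Hoxa and Hoxb. Motor neuron and spinal cord markers, of which 8 of 8 were in the HTSeq table, had summed levels of 11.9, 1.31 and 10.5 CPM in G328V, and 7.52, 1.15 and 14.3 CPM in WT. The 3 highest libraries of this list were also those in which Hoxa11 reached 3 counts, and Chat, a defining gene of motor neurons, had at most 15 counts in any library. The 5 haematopoietic markers in the HTSeq table, of 10 on the list, summed to 20.7, 6.78 and 3.71 CPM in G328V, and 8.65, 320 and 267 CPM in WT. Nearly all of the level in WT replicates 3 and 70A was Cd34, a surface protein of blood progenitors and vessel cells, with 114, 88 and 516 counts in G328V, and 48, 56088 and 46335 counts in WT. DESeq2 called Cd34 lower in G328V (DESeq2 adjusted p = 0.000882), and edgeR called no gene of the list. Ptprc, the defining gene of white blood cells, had 38, 0 and 93 counts in G328V, and 0, 0 and 14 counts in WT.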
